A study of Mus musculus with 12 samples.

Results

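The 38 genes described here encode heterogeneous nuclear ribonucleoproteins (hnRNPs) and serine/arginine-rich (SR) splicing factors. They were taken by symbol from the 23284 gene symbols in the expression tables: every symbol that starts with Hnrnp, Srsf or Sfrs, together with Tra2a, Tra2b, Srrm1, Srrm2, Srpk1, Srpk2, Raly and Syncrip. The rule reads symbols and no measured value, but it was set with earlier results of these data known. They fall into 20 hnRNP genes, with Raly and Syncrip among them, 11 SR genes, and 7 genes called SR-like here (Tra2a, Tra2b, Srrm1, Srrm2, Sfrs18, which RefSeq lists as Pnisr, and the kinase genes Srpk1 and Srpk2). RNA was sequenced from secondary 1B mouse embryonic fibroblasts, in which doxycycline (dox) induces introduced reprogramming factors. c-Myc is known to be one of those factors, and the values per gene do not separate reads of the introduced copy from those of the endogenous gene. All cells were transfected with siRNA and received either a control siRNA (siControl) or an siRNA that targets c-Myc (siMyc, the gene Myc) or Gcn5 (siGcn5, the gene Kat2a). Each arm had cells without dox and cells given dox for 2 days, which gives 6 groups of 2 libraries. The labels describe both pooled and individual siRNAs without saying which was used for these libraries, and do not say that replicates were separate cultures. The p-values thus rest on the spread between libraries, which may be technical.

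SR proteins bind exons through RNA recognition motifs and recruit the splicing machinery through arginine- and serine-rich tails, and many of them favour exon inclusion. hnRNPs coat nascent RNA and often compete with SR proteins by silencing splice sites, so the balance of both families sets the choice of many alternative exons. Both families also take part in export, stability and translation of mRNA. Srpk1 and Srpk2 phosphorylate the tails of SR proteins, which sends them to the nucleus. Many genes of both families limit their own output through exons that send the transcript to nonsense-mediated decay. Myc is a transcription factor that binds the E-box, while Gcn5 acetylates histones as the catalytic subunit of SAGA, a coactivator complex. The study compared the arms to examine how Myc and SAGA act on splicing regulators early in reprogramming.

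The promoters of the members were read from RefSeq on GRCm38.p6, since the expression tables were made on mm9 and carry no coordinates. Windows of 300 bases, from 250 before to 50 after a transcription start, were matched for 36 members, with 51 starts, and not for Hnrnpul2 and Sfrs18. The E-box CACGTG, which reads the same on both strands, was found in the windows of 5 members, and these sites are shown because Myc binds this sequence (capitals mark the E-box, 5′ to 3′ on the gene's strand, with 12 bases on each side).
Hnrnpa3: cggatagcacatCACGTGgtgactggcccc
Hnrnpd: gcgctccggagcCACGTGaccgggacgcgc
Hnrnpf: cgagcgggcgctCACGTGgcccgaggcgcc
Hnrnph2: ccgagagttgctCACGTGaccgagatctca
Hnrnpm: gtcgttcggggtCACGTGagcgcgcaggcg
The stretches lie at chr2:75659229-75659258 (plus strand, Hnrnpa3), chr5:99978953-99978982 (minus strand, Hnrnpd), chr6:117907713-117907742 (plus strand, Hnrnpf, at 1 of its 4 starts), chrX:134601182-134601211 (plus strand, Hnrnph2) and chr17:33685428-33685457 (minus strand, Hnrnpm). Counted from the start, the first base of the E-box stood at -18 in Hnrnpa3, -32 in Hnrnpd and -79 in Hnrnpf, and inside the transcript at 16 in Hnrnph2 and 14 in Hnrnpm. The share of members with a CACGTG, 13.9% of 36, was close to the 11.92% among the 9088 tested genes with a RefSeq window. Of the windows, 9.80% of the members' 51 and 7.15% of all 32851 held it. The related sequence CACGCG, searched on both strands, was found in 6 members (Srsf3, Srsf6, Srsf11, Raly, Hnrnph1 and Hnrnpr), 16.7% of 36 against 19.89% of the tested genes matched, and no member held both sequences. A match describes the letters of these windows only.

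Start sites are shown for the members with the 3 largest falls in siMyc with dox, Hnrnpa1, Hnrnpa2b1 (which has 2 starts) and Hnrnpd, with the first transcribed base in capitals.
Hnrnpa1: taccgagagcgaggaGgcgggataaaaggg
Hnrnpa2b1, first start: cgtaagcggagacgcGttagtggggggaag
Hnrnpa2b1, other start: ctcggctccagcggcAgtagcagcggcgcc
Hnrnpd: ccgttcttccgtcggCcattttaggtggtc
They lie at chr15:103240382-103240411 (plus strand), chr6:51469880-51469909 and chr6:51469831-51469860 (both minus strand), and chr5:99978924-99978953 (minus strand). Only the Hnrnpd window among these holds a CACGTG, and neither Hnrnpa1 nor Hnrnpa2b1 holds a CACGCG.

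Values are RPKM (reads normalised to transcript length and library depth). Gene reads per library, recovered from the steps in the RPKM values, ran from 65.5 M to 188 M, both extremes being siMyc libraries with dox, and replicates correlated at Spearman 0.986 to 0.988 across genes. Each of the 37 tested members had between 1338 and 183784 reads in every library. Srsf12 was not tested, since it stayed at 0.0769 to 0.442 RPKM with 22 to 161 reads. Myc was at 19.7 RPKM in siControl without dox and 4.69 in siMyc, and with dox at 164.6 and 21.6. The mean Myc level in siMyc with dox (SD 6.65) was thus near that in siControl without dox (SD 2.97). Within siMyc, Myc still rose with dox (log2 change 1.96). Kat2a was at 21.9 RPKM in siControl without dox and 1.65 in siGcn5, and with dox at 54.4 and 7.69. The other target also differed from siControl with each siRNA, though not equally at both dox states. Kat2a was lower in siMyc with dox (18.8 RPKM, log2 change -1.49). Without dox it did not pass limma's test (17.0 RPKM, log2 change -0.34, adjusted p = 0.129). Myc was lower in siGcn5 without dox (8.20 RPKM, log2 change -1.17). With dox Myc was lower by less (115.9 RPKM, log2 change -0.51, limma adjusted p = 0.0464). All 10 fibroblast markers were detected in every library, with summed levels of 11460 to 11480 RPKM in siControl without dox and 2872 to 3281 with dox. Summed levels of 10 epithelial markers were 17.4 to 20.4 RPKM in siControl without dox and 498 to 574 with dox. Most of that rise came from Krt14 (group means of 0.0600 and 334 RPKM) and Krt8 (0.674 and 125). Krt18 did not rise (6.24 and 5.29 RPKM), and Cldn7 stayed low (0.0763 and 0.0899). Endothelial markers summed to at most 12.1 RPKM and blood markers to at most 7.63 in any library, with Cd3e at 0 in all 12 libraries. Skeletal muscle markers summed to 41.1 to 266 RPKM and the 4 neural markers found to 14.0 to 158. Most of these sums came from Acta1 (group means of 47.8 to 252.5 RPKM) and from Tubb3 (14.4 to 148.9). Des had group means of 3.74 to 13.3 RPKM, and Myod1, Myog and Ckm of at most 0.0578. Rbfox3, Sox10 and Gfap had group means of at most 0.352 RPKM. In these bulk samples, fewer cells of a type and less RNA per cell cannot be told apart.

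In siControl cells without dox the most abundant member, per length, was Hnrnpk, a poly(C)-binding hnRNP (333 RPKM), followed by Hnrnpa1 (277) and Hnrnpa2b1 (181), both splicing silencers of the A/B subfamily, Hnrnpab (161), Raly (156) and Hnrnpl (125). The replicates of each of these did not overlap those of the next. From Hnrnph1 (123 RPKM) through Hnrnpa3, Hnrnpu, Srsf5, Hnrnpm and Hnrnpf to Hnrnpc each gene's replicates overlapped those of its neighbour, and of all 37 pairs of neighbours 17 overlapped. The lowest of the tested members was Srpk2 (8.33 RPKM). With dox, Hnrnpa1 (579 RPKM) stood above Hnrnpk (457) in siControl, whereas Hnrnpk had the highest mean in the 5 other groups. In siGcn5 with dox the replicates of Hnrnpk (294 and 345 RPKM) and Hnrnpa1 (268.5 and 328) overlapped.

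The members took up more of the library in siControl cells with dox than in any other group. Their summed share of gene reads was 0.821% and 0.805% in the 2 siControl libraries without dox and 1.32% and 1.39% with dox. The siMyc libraries held 0.677% and 0.687% before dox and 0.691% and 0.710% after it. The siGcn5 libraries held 0.651% and 0.664% before dox and 0.834% and 0.939% after it. Both siRNA arms thus lay below siControl at either dox state, and the siMyc groups with and without dox stood close together without overlapping. The hnRNP genes held most of the share, 0.607% to 0.611% without dox and 0.996% to 1.06% with dox in siControl. SR genes held 0.121% to 0.129% and 0.209% to 0.212% in the same libraries.

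**Figure D1:**
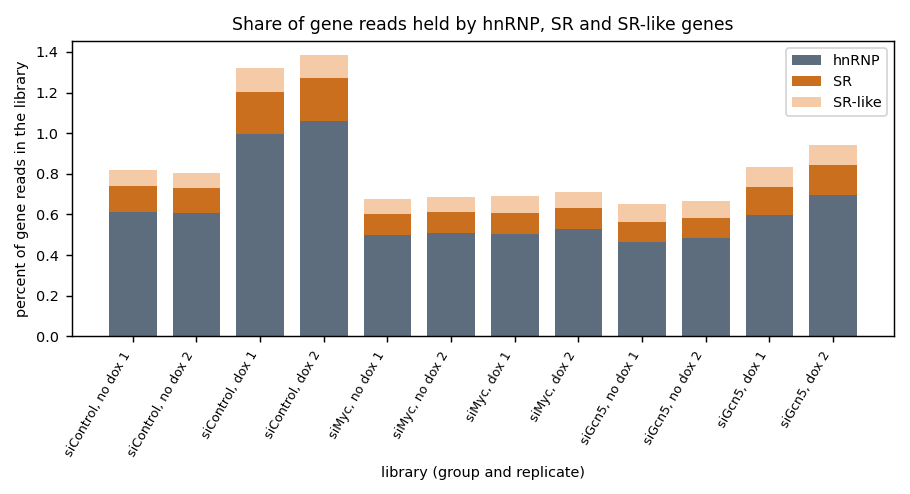
Percent of a library's gene reads held by the hnRNP, SR and SR-like genes (stacked bars, y axis) in each of the 12 libraries (x axis). The 2 siControl libraries with dox reach 1.32% and 1.39%, and no other library passes 0.939%.

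Dox raised most members in siControl cells. In limma's test across all 13175 genes tested (two-sided, Benjamini-Hochberg adjusted p under 0.05, on the log2(RPKM + 1) scale), 31 of 37 were higher with dox and 1 was lower, where 46.1% of all genes tested were higher and 27.9% lower. The median log2 change of the members was 0.68, and that of all genes tested was 0.17. By class, 18 of 20 hnRNP genes, 8 of 10 SR genes and 5 of 7 SR-like genes rose. In 35 members both dox libraries lay above both libraries without dox, as in 53.9% of all genes tested, and in Raly and Srpk2 both lay below, as in 34.8% of all genes tested. Other scalings lowered the size of the rise without turning it: the members' median was 0.53 after median-ratio scaling and 0.47 after quantile normalization, which put the median of all genes tested at 0.05 and 0.00.

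Of the hnRNP A/B genes, Hnrnpa1, which silences splice sites and shuttles mRNA to the cytoplasm, was at 274 and 279.6 RPKM without dox and at 554 and 604 with dox. The rise was 2.09-fold (log2 change 1.06, SE 0.14, adjusted p = 5.71e-05). Hnrnpa2b1, its close relative, was at 186 and 176 RPKM without dox and 338 and 349.7 with dox (log2 change 0.92, SE 0.08, adjusted p = 2.14e-06). For both genes the groups stood far apart compared with their replicates. Hnrnpa3 rose by 0.93, Hnrnpab by 0.89 and Hnrnpa0 by 0.44 on the log2 scale, the last no longer called after quantile normalization (adjusted p = 0.0646). Reads of Hnrnpa1 and Srsf3 could be shared with near-identical pseudogene copies that RefSeq lists, so the levels of both are uncertain.

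Hnrnpd, known as AUF1, binds AU-rich elements and promotes mRNA decay. It was at 16.3 and 17.7 RPKM without dox and 32.6 and 39.5 with dox (log2 change 1.04, SE 0.17, adjusted p = 0.000265), so the lower dox library stood well above both libraries without dox. Hnrnpc, which binds uridine tracts, rose by 0.90 and Hnrnpf, which binds G tracts, by 0.82 on the log2 scale. Other rises on that scale were 0.86 for Syncrip, 0.84 for Hnrnpu, the scaffold attachment factor, 0.83 for Hnrnpm, 0.68 for Hnrnpr and 0.50 for Hnrnpl, which binds CA repeats. The abundant Hnrnpk was at 322 and 345 RPKM without dox and 435 and 479.5 with dox, and rose by less (log2 change 0.45, SE 0.10, adjusted p = 0.00241).

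Among SR genes, Srsf2, a nuclear speckle protein known as SC35, was at 58.4 and 57.9 RPKM without dox and 115.5 and 124 with dox (log2 change 1.03, SE 0.16, adjusted p = 0.000198). Srsf7, an adaptor for mRNA export as well as a splicing factor, was at 43.7 and 39.4 RPKM without dox and 81.8 and 84.0 with dox (log2 change 0.98, SE 0.09, adjusted p = 4.98e-06). Both genes about doubled, with no overlap between groups. Srsf3, the smallest SR protein, rose by 0.94, Srsf1, the founding SR protein, by 0.91, Srsf4 by 0.70, Srsf6 by 0.69, Srsf10 by 0.65 and Srsf11 by 0.49 on the log2 scale. Srsf5 (log2 change 0.33, adjusted p = 0.077) and Srsf9 (0.16, adjusted p = 0.0621) did not pass the test, nor did Hnrnph3 (0.14), Sfrs18 (0.27, adjusted p = 0.0502) and Raly (-0.06).

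Of the SR-like genes, Srpk1 was at 31.9 and 30.2 RPKM without dox and at 61.0 and 56.8 with dox (log2 change 0.90, SE 0.08, adjusted p = 4.96e-06). Tra2b, an activator of exon inclusion, rose by 0.88, Tra2a by 0.61 and Srrm1, a splicing coactivator, by 0.60 on the log2 scale. Srpk2 was the member that fell, from 7.97 and 8.69 RPKM to 7.11 and 6.63 (log2 change -0.25, SE 0.10, adjusted p = 0.0475). That call ended when any 1 of the siControl or siMyc libraries was left out, with adjusted p from 0.0518 to 0.219. The calls of Hnrnpul1 (log2 change 0.23) and Srrm2 (0.32) were also lost in some alternatives. Hnrnpul1 was lost without any 1 siControl library (adjusted p from 0.0697 to 0.12) and after median-ratio scaling (0.487). Srrm2 was lost without siControl replicate 2 without dox (0.181) or siControl replicate 1 with dox (0.206), and after median-ratio scaling (0.182).

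**Figure D2:**
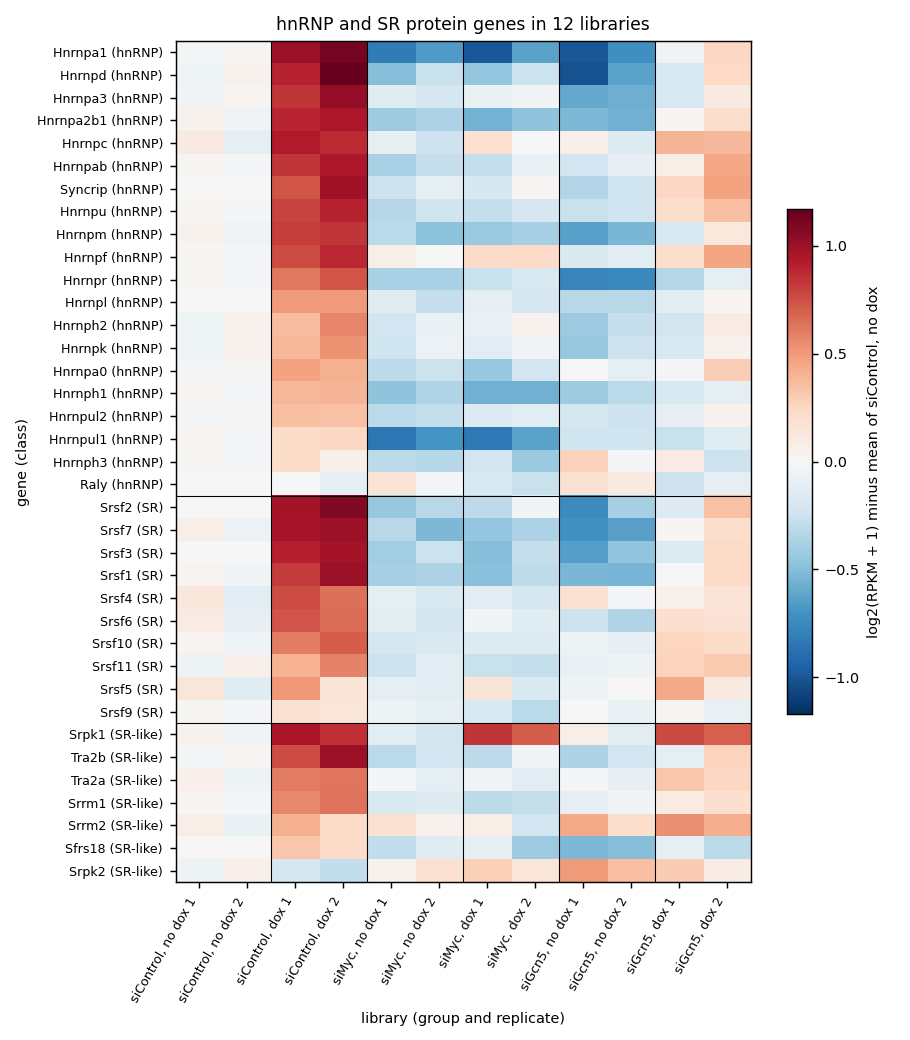
Level of each of the 37 tested members (rows, by class and then by size of the rise with dox in siControl) in each of the 12 libraries (columns), as log2(RPKM + 1) minus the mean of the 2 siControl libraries without dox. Red cells, for a higher level, fill most rows of the 2 siControl libraries with dox, while in siMyc with dox Srpk1 is the row with the strongest red.

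Proliferation genes moved with the members in siControl. All 15 proliferation genes on the list (Mki67, Top2a, 6 Mcm genes and others) were higher with dox, with a median log2 change of 1.20, and their summed level was 354 to 395 RPKM without dox and 840.1 to 961 with dox. All 10 fibroblast markers were lower with dox (median log2 change -2.35). The part of proliferation or of the fibroblast and epithelial changes in the members' rise was not tested.

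In siMyc cells most members stayed near their level without dox. With dox, 1 of 37 was higher (Srpk1) and 1 lower (Raly), where 28.9% of all genes tested were higher and 15.9% lower. The median log2 change of the members was 0.03, which turned to -0.06 after median-ratio scaling and -0.10 after quantile normalization, and that of all genes tested was 0.08. At an unadjusted p under 0.05, 4 members were higher and 3 lower, but all genes were not counted at that threshold. Median-ratio scaling called 1 higher and 4 lower, against 22.8% and 20.7% of all genes tested, and quantile normalization 1 and 5, against 19.3% and 28.7%. The count of higher members was 2 without siMyc replicate 2 with dox or without any 1 siGcn5 library, and the count of lower members was 0 without siMyc replicate 1 without dox or replicate 2 with dox. Both dox libraries lay above both others in 8 members and below in 6, against 45.0% and 28.2% of all genes tested.

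Hnrnpa1 was at 157 and 174.5 RPKM in the siMyc libraries lacking dox and 139 and 179 in those with it (log2 change -0.07, SE 0.14, adjusted p = 0.725), so the groups overlapped. Hnrnpa2b1 was at 136 and 141 RPKM without dox and 123 and 130.1 with dox (log2 change -0.13, adjusted p = 0.187). Srsf7 was at 33.0 and 28.5 RPKM without dox and 30.1 and 32.0 with dox (log2 change 0.02, adjusted p = 0.905). In all 3 genes, which about doubled with dox in siControl, the siMyc values with dox stood below both siControl libraries without dox. The 15 proliferation genes gave no call with dox in siMyc (median log2 change -0.21; limma called 0, none had an unadjusted p under 0.05 and voom called 0), and their summed level was 297 to 337 RPKM without dox and 276 to 316 with dox.

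The difference between the dox responses was itself tested. The interaction of dox and siMyc, which is the log2 change with dox in siMyc minus that in siControl, was below 0 and called in 28 of 37 members and above 0 and called in 0, where 29.3% of all genes tested were called below and 24.8% above. Voom called 0 members above, against 23.8% of all genes tested. At an unadjusted p under 0.05, 1 member was above 0, but all genes were not counted at that threshold. The count of members above was 1 without either siGcn5 library with dox. The members' median was -0.63 and that of all genes tested -0.03. It was called in 15 of 20 hnRNP genes, 9 of 10 SR genes and 4 of 7 SR-like genes. The largest values were -1.13 for Hnrnpa1 (SE 0.20, adjusted p = 0.00098), -1.05 for Hnrnpa2b1 (SE 0.11, adjusted p = 6.36e-05), -1.01 for Hnrnpd (SE 0.24, adjusted p = 0.00531) and -1.0 for Srsf3. Members without a call included Hnrnpul1 (-0.19), Srsf5 (-0.22), Raly (-0.24), Srpk1 (0.05) and Srpk2 (0.34, adjusted p = 0.0641). Of the proliferation genes, all 15 were called below 0 (median -1.30).

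In siGcn5 cells dox raised most members, as 27 of 37 were higher and 1 lower (Raly), where 36.0% of all genes tested were higher and 22.4% lower. The median log2 change was 0.35, against 0.08 over all genes tested. After median-ratio scaling 19 members were higher and 3 lower, against 27.6% and 30.7% of all genes tested, with a median of 0.23. The count of lower members was 0 without siGcn5 replicate 1 without dox and 3 without siGcn5 replicate 1 with dox. The rises took in 15 of 20 hnRNP genes, 7 of 10 SR genes and 5 of 7 SR-like genes. Both dox libraries lay above both others in 29 members and below in 2, against 45.7% and 32.0% of all genes tested.

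Hnrnpa1 was at 138.5 and 167 RPKM in the siGcn5 libraries lacking dox and 268.5 and 328 in those with it (log2 change 0.96, SE 0.14, adjusted p = 0.000259). Hnrnpa2b1 rose from 126 and 122.5 RPKM to 183 and 209 (log2 change 0.65), and Srsf7 from 25.0 and 26.3 to 42.2 and 47.8 (log2 change 0.78). With dox, these 3 genes thus stood near the level of siControl cells without dox. Hnrnpd rose by 0.85 on the log2 scale, Srpk1 by 0.77, Srsf1 and Srsf2 by 0.66 each, Syncrip by 0.64 and Srsf3 by 0.59. Srsf2 was no longer called without siGcn5 replicate 1 without dox (adjusted p = 0.0531). All 15 proliferation genes rose here as well (median log2 change 1.29), from a summed level of 107 to 151 RPKM without dox to 246 to 416 with dox.

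**Figure D3:**
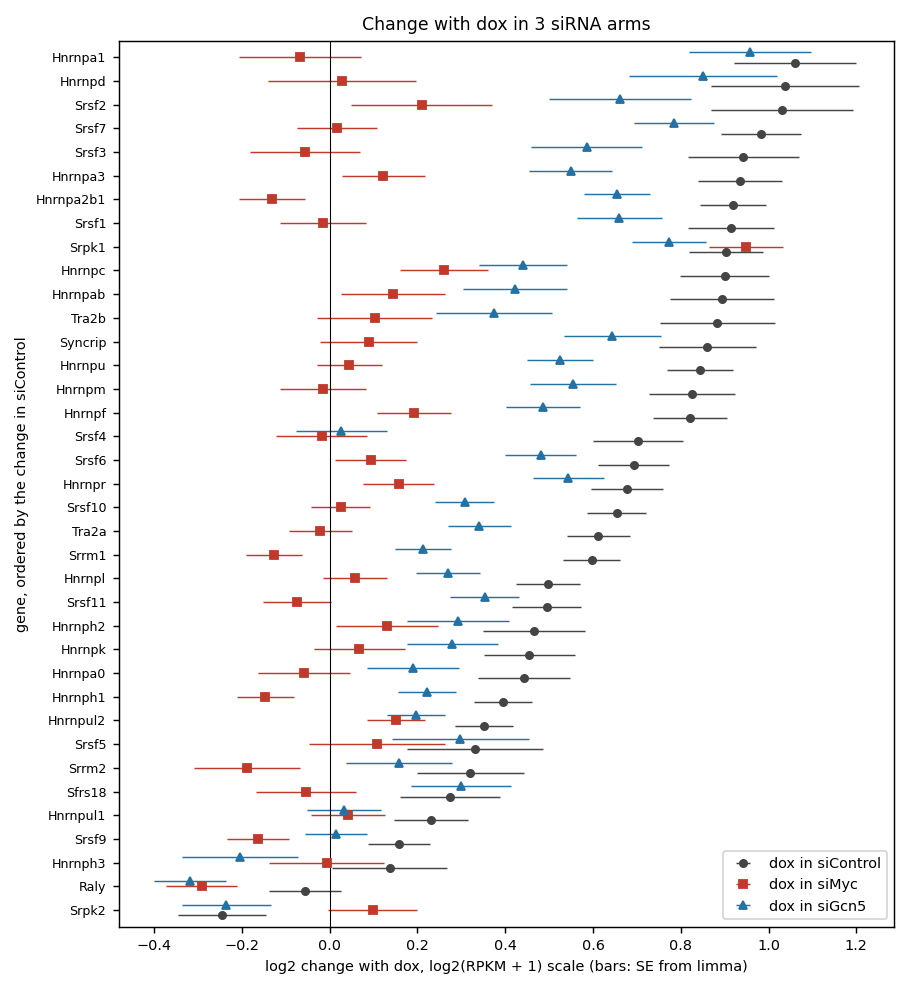
Log2 change with dox on the log2(RPKM + 1) scale (x axis, with the SE from limma) of the 37 tested members (y axis, ordered by the change in siControl) in siControl (circles), siMyc (squares) and siGcn5 (triangles). The squares gather around 0 except for Srpk1 at 0.95, while most triangles lie between the squares and the circles.

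The interaction of dox and siGcn5 was called below 0 in 5 of 37 members and above 0 in 0, where 14.5% of all genes tested were called below and 11.4% above, so the share below was close to that of all genes. The members' median was -0.23 and that of all genes tested -0.08, with single members from -0.68 to 0.03. Voom called 4 members below and 0 above, against 14.3% and 11.5% of all genes tested. At an unadjusted p under 0.05, 12 members were below and 0 above, but all genes were not counted at that threshold. The count of 5 was 3 without siControl replicate 1 without dox, 1 without siControl replicate 2 without dox, 1 without siControl replicate 2 with dox, 2 without siGcn5 replicate 1 without dox, 3 without siGcn5 replicate 1 with dox and 13 without siGcn5 replicate 2 with dox. Srsf4, known as SRp75, was the member whose call stayed in every alternative tried. It was at 15.7 and 12.9 RPKM in siControl without dox and 24.8 and 22.8 with dox, but its siGcn5 values were 16.3 and 14.0 without dox and 14.8 and 16.0 with it. The interaction was -0.68 (SE 0.15, adjusted p = 0.0103), so the gene rose in siControl and its siGcn5 groups overlapped. The other calls were Hnrnpc (-0.46, adjusted p = 0.0394), Srrm1 (-0.38, adjusted p = 0.0144), Srsf10 (-0.35, adjusted p = 0.0243) and Hnrnpu (-0.32, adjusted p = 0.0482). Srrm1 was lost without siControl replicate 2 without dox (0.0588) or with dox (0.0541), and the 3 others without each of several libraries, Hnrnpc at up to 0.142, Srsf10 at up to 0.0912 and Hnrnpu at up to 0.151. Hnrnpa1 (-0.10, adjusted p = 0.725), Hnrnpd (-0.19) and Srsf7 (-0.20) did not pass.

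Without dox, 10 of 37 members were lower in siMyc than in siControl and 0 were higher, where 10.7% of all genes tested were lower and 12.8% higher. Voom called 11 members lower and 0 higher, against 11.8% and 14.9% of all genes tested. At an unadjusted p under 0.05, 20 members were lower and 0 higher, but all genes were not counted at that threshold. The median log2 difference of the members was -0.21, against 0.02 over all genes tested. The count of lower members was 3 without siControl replicate 1, 6 without siControl replicate 2 and 5 without siMyc replicate 1, all without dox. With some other library left out, or with a term for replicate number in the fit, the count was higher, as given in the last section. In 29 members both siMyc libraries lay below both siControl libraries, and in 0 above, against 31.4% and 37.8% of all genes tested. The 10 lower members were 8 hnRNP genes and the SR genes Srsf1 and Srsf7.

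Hnrnpul1, an hnRNP U relative, was at 46.6 and 45.3 RPKM in siControl without dox and 25.1 and 28.0 in siMyc (log2 difference -0.77, SE 0.08, adjusted p = 0.000687). Hnrnpa1 was at 274 and 279.6 RPKM in siControl and 157 and 174.5 in siMyc (log2 difference -0.74, SE 0.14, adjusted p = 0.00485). These 2 calls and that of Hnrnph1 (-0.41) held under each alternative tried. Hnrnpa2b1 (-0.39) was lost without siControl replicate 1 (adjusted p = 0.0555) or siMyc replicate 1 (0.0543), and Srsf7 (-0.42) without siControl replicate 1 (0.0818) or siMyc replicate 2 (0.0634). Hnrnpr (-0.38) was lost without siControl replicate 1 (0.0652) or siMyc replicate 1 (0.0619). Srsf1 (-0.38) was lost without any 1 of the 4 siControl and siMyc libraries without dox (0.0647 to 0.117). With dox, Hnrnpul1 was at 25.3 and 29.4 RPKM in siMyc, overlapping its siMyc values without dox, and at 53.5 and 54.7 in siControl.

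With dox, nearly all members were lower in siMyc than in siControl. The count was 33 of 37 lower and 1 higher (Srpk2), where 37.1% of all genes tested were lower and 37.7% higher. The median log2 difference was -0.82, against 0.02 over all genes tested, and -0.79 and -0.78 after median-ratio scaling and quantile normalization. Lower members were 19 of 20 hnRNP genes, 9 of 10 SR genes and 5 of 7 SR-like genes. Both siMyc libraries lay below both siControl libraries in 36 members and above in 1, against 43.2% and 44.9% of all genes tested. Thus the groups of all 37 members were apart in this comparison.

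The largest difference was that of Hnrnpa1, at 554 and 604 RPKM in siControl and 139 and 179 in siMyc, 3.64-fold lower (log2 difference -1.87, SE 0.14, adjusted p = 1.12e-06). Hnrnpa2b1 was at 338 and 349.7 RPKM in siControl and 123 and 130.1 in siMyc (log2 difference -1.44, SE 0.08, adjusted p = 1.88e-07). Hnrnpd was at 32.6 and 39.5 RPKM in siControl and 12.1 and 14.1 in siMyc (log2 difference -1.39, SE 0.17, adjusted p = 3.02e-05). In each of the 3, both siMyc libraries stood far below both siControl libraries, compared with the gap between replicates. Srsf7 (-1.39), Srsf3 (-1.33), Srsf1 (-1.31), Hnrnpm (-1.24), Srsf2 (-1.20), Hnrnpu (-1.08), Hnrnpab (-1.07) and Tra2b (-1.05) followed on the log2 scale. Hnrnpk was lower by less, 435 and 479.5 RPKM against 305 and 323 (log2 difference -0.54, adjusted p = 0.000762). Srrm2, the scaffold of nuclear speckles, was called at -0.40 (adjusted p = 0.0125), and lost without siControl replicate 1 with dox (0.0968) or siMyc replicate 2 with dox (0.12). Srsf5 (-0.35, adjusted p = 0.0656), Raly (-0.17) and Srpk1 (-0.13) did not pass. The 15 proliferation genes were all lower (median log2 difference -1.52), at 276 to 316 RPKM in sum against 840.1 to 961. Of 10 fibroblast markers, 8 were higher and 0 lower, where 37.7% of all genes tested were higher. They summed to 5716 to 5728 RPKM against 2872 to 3281. Of 7 epithelial markers tested, 3 were higher and 2 lower, and the list summed to 1172 to 1296 RPKM against 498 to 574. The part of these changes in the members' difference was not tested. Members with a CACGTG window had a median of -0.99 (5 genes) and those matched without one -0.84 (30 genes), both given as a description.

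In the cells without dox, siGcn5 lowered members of both families. Of 37, 20 were lower than in siControl and 2 higher, where 20.4% of all genes tested were lower and 36.9% higher. The median log2 difference was -0.25 for the members and 0.11 for all genes tested, and -0.39 and -0.35 for the members after median-ratio scaling and quantile normalization. The count of lower members was 13 without siControl replicate 1, and that of higher members was 1 without siControl replicate 1, siControl replicate 2 or siGcn5 replicate 1. Both siGcn5 libraries lay below both siControl libraries in 26 members and above in 3, against 30.9% and 51.7% of all genes tested. Lower were 14 of 20 hnRNP genes, 5 of 10 SR genes and 1 of 7 SR-like genes.

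Hnrnpr, a relative of Syncrip, was at 31.2 and 30.5 RPKM in siControl and 17.7 and 17.8 in siGcn5 (log2 difference -0.76, SE 0.08, adjusted p = 4.97e-05). Hnrnpa1 was at 138.5 and 167 RPKM in siGcn5 (log2 difference -0.86, SE 0.14, adjusted p = 0.000515) and Hnrnpd at 7.85 and 10.6 (-0.83, adjusted p = 0.00204). In these 3 the groups were well apart. Srsf7 was lower by a log2 difference of -0.67, Hnrnpa3 and Hnrnpm by -0.58, Srsf2 by -0.57, Srsf3 by -0.55 and Hnrnpa2b1 and Srsf1 by -0.54. Of these, Srsf2 was lost without siGcn5 replicate 1 (adjusted p = 0.115), siControl replicate 1 (0.0538) or siControl replicate 2 (0.05). The 2 higher members were Srpk2 (0.42, adjusted p = 0.00481) and Srrm2 (0.32, adjusted p = 0.0414), and Srrm2 was lost without siControl replicate 1 (0.0584), siControl replicate 2 (0.209) or siGcn5 replicate 1 (0.273). All 15 proliferation genes were lower (median log2 difference -1.57), with summed levels of 107 to 151 RPKM against 354 to 395.

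With dox, 31 of 37 members were lower in siGcn5 than in siControl and 1 was higher (Srpk2), where 24.9% of all genes tested were lower and 31.4% higher. The median log2 difference was -0.51, against 0.05 over all genes tested. Lower were 18 of 20 hnRNP genes, 9 of 10 SR genes and 4 of 7 SR-like genes. Of the 32 calls, 3 were lost in at least 1 alternative. These were Srsf11 (log2 difference -0.21, from -0.32 to -0.12 over the alternatives), Srsf9 (-0.19, from -0.30 to -0.13) and Hnrnpa0 (-0.31, from -0.47 to -0.15). Both siGcn5 libraries lay below both siControl libraries in 32 members and above in 2, against 35.4% and 43.2% of all genes tested. Hnrnpa3 was at 219 and 249.5 RPKM in siControl and 107.5 and 131 in siGcn5 (log2 difference -0.97, SE 0.10, adjusted p = 4.79e-05). Hnrnpd was at 14.8 and 20.1 RPKM in siGcn5 (log2 difference -1.01, adjusted p = 0.000695), Hnrnpa1 at 268.5 and 328 (-0.96, adjusted p = 0.000327) and Srsf2 at 52.3 and 73.9 (-0.94, adjusted p = 0.000832). For the 4 genes the siGcn5 replicates were further apart from each other than the siControl replicates in relation to their level, and still lay below both siControl libraries. Hnrnpr (-0.90), Srsf3 (-0.91), Srsf7 (-0.87), Hnrnpm (-0.85) and Hnrnpa2b1 (-0.81) came next. Hnrnph3 (-0.21), Srpk1 (-0.16), Raly (-0.12), Srsf5 (-0.06) and Srrm2 (0.16) did not pass. The 15 proliferation genes were all lower (median log2 difference -1.44), with summed levels of 246 to 416 RPKM against 840.1 to 961. Of 10 fibroblast markers, 6 were higher and 0 lower, and they summed to 4465 to 5222 RPKM against 2872 to 3281. Of 7 epithelial markers tested, 1 was higher and 3 lower. The part of these changes in the members' difference was not tested.

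Between the 2 knockdowns with dox, 21 of 37 members were lower in siMyc than in siGcn5 and 0 were higher, where 38.6% of all genes tested were lower and 27.3% higher. Voom called 21 lower and 0 higher, against 38.3% and 26.8% of all genes tested. At an unadjusted p under 0.05, 22 were lower and 0 higher, but all genes were not counted at that threshold. The median log2 difference was -0.30, against -0.09 over all genes tested. After median-ratio scaling, which moved the median of all genes tested to 0.03, 13 of 37 were lower, close to the share of all genes tested under that scaling (30.8%), and the members' median was -0.16. Both siMyc libraries lay below both siGcn5 libraries in 23 members and above in 0, against 46.4% and 34.2% of all genes tested. The largest difference was that of Hnrnpa1, at 139 and 179 RPKM in siMyc and 268.5 and 328 in siGcn5 (log2 difference -0.91, SE 0.14, adjusted p = 0.000214). Hnrnpa2b1 (-0.63), Srrm2 (-0.56), Srsf11 (-0.55), Hnrnpul1 (-0.53), Srsf7 (-0.52), Hnrnpu (-0.51) and Srsf1 (-0.51) also differed. Hnrnpr was at 25.5 and 27.1 RPKM in siMyc and 24.3 and 28.5 in siGcn5 (log2 difference -0.00, SE 0.08, adjusted p = 0.996), and Hnrnpa3 (-0.02) and Hnrnpk (-0.02) were as close. Of the proliferation genes 1 of 15 differed, being lower in siMyc (median log2 difference of the 15, -0.17).

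Some members went their own way. Srpk1, the SR protein kinase, rose with dox in all 3 arms, from 28.1 and 26.5 RPKM to 56.1 and 51.3 in siMyc (log2 change 0.95, SE 0.08, adjusted p = 7.18e-06) and from 32.5 and 28.2 to 53.8 and 51.0 in siGcn5 (log2 change 0.77, SE 0.08, adjusted p = 3.92e-05). Its rise in siControl was 0.90, and neither interaction was called (0.05, SE 0.12, adjusted p = 0.761 for siMyc; -0.13, SE 0.12, adjusted p = 0.439 for siGcn5). The second kinase gene, Srpk2, was higher with either siRNA in the cells with dox: 7.11 and 6.63 RPKM in siControl, 10.3 and 9.29 in siMyc (log2 difference 0.46, adjusted p = 0.00192) and 10.4 and 8.88 in siGcn5 (0.43, adjusted p = 0.00455). Its siMyc and siGcn5 libraries with dox overlapped each other and lay above both siControl libraries.

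Raly, a relative of hnRNP C, was at 155 and 156 RPKM in siControl without dox and 155.1 and 145 with dox. It fell with dox in siMyc, from 174 and 153 RPKM to 137 and 129.9 (log2 change -0.29, SE 0.08, adjusted p = 0.0142), and in siGcn5, from 177 and 168 to 131 and 145 (log2 change -0.32, SE 0.08, adjusted p = 0.00716). The siMyc call was lost without siMyc replicate 1 without dox (0.123) or replicate 2 with dox (0.0913), and the siGcn5 call without siGcn5 replicate 1 without dox (0.0503). The fall was not shown to differ from siControl, since both interactions missed the threshold (-0.24, adjusted p = 0.108; -0.26, adjusted p = 0.116). Srsf5, known as SRp40, had no call in any of the 10 comparisons. Its replicates were far apart in several groups, for instance 167 and 130.1 RPKM in siControl with dox and 159 and 126 in siGcn5 with dox, and the largest difference was -0.35 (SE 0.16) in siMyc with dox.

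**Figure D4:**
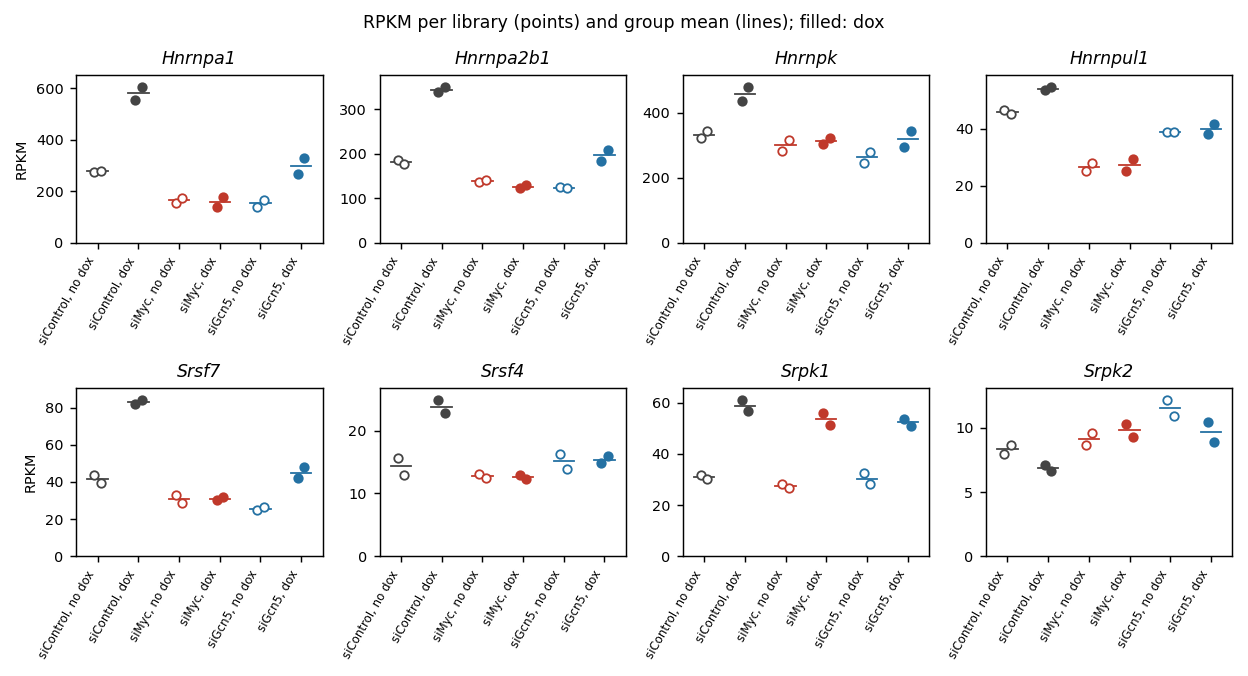
RPKM (y axes, each from 0) of 8 members in the 6 groups (x axes). Points are libraries, filled with dox, and lines are group means. Hnrnpa1 reaches 554 and 604 RPKM in siControl with dox and stays at 139 and 179 in siMyc, while Srpk1 rises in all 3 arms and Hnrnpul1 is low in siMyc at either dox state.

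Genes that work with the members were taken from 4 lists. Their counts are read against the shares of all genes tested. With dox these were 46.1% higher and 27.9% lower in siControl, 28.9% and 15.9% in siMyc, and 36.0% and 22.4% in siGcn5. Against siControl, in the cells with dox, they were 37.7% higher and 37.1% lower in siMyc, and 31.4% and 24.9% in siGcn5. Of 29 hnRNP proteins under other symbols, 20 rose and 3 fell with dox in siControl (median log2 change 0.44), 2 rose and 5 fell in siMyc, and 10 rose and 3 fell in siGcn5. The 10 rises in siGcn5 and the 5 falls in siMyc were close to the shares of all genes. With dox, 25 were lower and 2 higher in siMyc than in siControl (median -0.69) and 22 lower and 0 higher in siGcn5. Rbmxl1, an RBMX-like protein, went from 35.8 to 84.4 RPKM with dox in siControl (log2 change 1.21, adjusted p = 2.19e-05) and was at 29.2 in siMyc with dox (log2 difference -1.50). Ilf2 and Sfpq, a paraspeckle protein, rose by 0.91 and 0.86 on the log2 scale, and Pcbp3 fell by 0.91. Cirbp, the cold-inducible RNA-binding protein, went against the list, at 7.09 RPKM in siControl and 27.7 in siMyc with dox (log2 difference 1.83, adjusted p = 4e-05).

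Of 28 tested SR-related splicing proteins, 22 rose and 1 fell with dox in siControl (median log2 change 0.52), 3 rose and 0 fell in siMyc, and 15 rose and 1 fell in siGcn5. With dox, 23 were lower and 1 higher in siMyc than in siControl, and 15 and 1 in siGcn5. U2af1, the small subunit that reads the 3′ splice site, went from 91.9 to 212 RPKM with dox in siControl (log2 change 1.20, adjusted p = 1.03e-06) and was at 89.1 in siMyc with dox. Its interaction of dox and siMyc was -1.0 (adjusted p = 0.000147). Pnn was at 39.5 RPKM in siControl and 17.2 in siMyc with dox (log2 difference -1.16).

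Of 16 tested enzymes and import factors that modify or carry SR proteins and hnRNPs, 10 rose and 0 fell with dox in siControl, 1 and 0 in siMyc, and 9 and 0 in siGcn5. With dox, 9 were lower in siMyc and 7 in siGcn5 than in siControl, with 0 higher in either. The largest rise with dox in siControl among the 16 was that of the arginine methyltransferase gene Prmt5, which went from 28.8 to 82.3 RPKM (log2 change 1.48, adjusted p = 1.15e-06) and was at 21.2 in siMyc and 72.7 in siGcn5 with dox. Prmt1, which methylates many hnRNPs, was at 199 and 374.5 RPKM in siControl without and with dox, 123 in siMyc with dox and 236 in siGcn5 with dox. Of 13 nonsense-mediated decay factors, 9 rose and 0 fell with dox in siControl, 1 rose and 2 fell in siMyc, and 7 rose and 1 fell in siGcn5. Upf3b went from 7.95 to 19.6 RPKM with dox in siControl (log2 change 1.20) and was at 5.49 in siMyc with dox (log2 difference -1.66, adjusted p = 6.03e-07). With dox, 9 of these 13 were lower in siMyc than in siControl, while in siGcn5 4 were lower and 3 higher, the last counts being close to the shares of all genes.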

How the data were processed

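Each library has 1 deposited table of RPKM values, over 23284 gene symbols, made by the authors. The submitters' processing notes name mm9 as build and, as tools with no role stated, Bowtie 0.12.8, TopHat2 2.0.9, affy, edgeR and HTSeq. The annotation and the use of strand in counting are not given in those notes. Per the labels' protocols, libraries were stranded total RNA depleted of ribosomal RNA. RPKM is relative to each library's total, so RNA per cell is not measured. Whole reads were recovered from the RPKM steps for all 20788 genes with a value (tolerance 0.05 read), and were used for depth and for voom.

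Genes with an RPKM of at least 1 in at least 2 of 12 libraries were tested (13175) on log2(RPKM + 1) with limma (3.58.1, under R 4.3.3) using its intensity trend and 1 mean per group (6 residual and 4.17 prior degrees of freedom). All adjusted p-values are limma's, two-sided, by the Benjamini-Hochberg method over all genes tested, with a call under 0.05. The test was checked on simulated data, with libraries drawn independently and a common dispersion for all genes. That check does not tell whether the p-values hold for the spread of the real replicates. The log2 scale with its pseudocount of 1 understates changes of low genes. Single-library values are given for members with the 3 largest called rises or falls in any of the 10 comparisons and for the most abundant member of each subfamily, and list genes are among the 4 largest called changes. CACGTG stretches, chosen for the motif, lie outside that rule. The members and lists were chosen with earlier results of these data known. Alternatives were no filter, a mean RPKM of at least 5, a pseudocount of 0.1, median-ratio scaling, quantile normalization, a replicate block, voom, and leaving out each library. Recovered reads of replicates differed beyond sampling noise (chi-square per degree of freedom 32.2 to 88.3), and each library counted as a sample. That spread does not tell whether replicates were separate cultures or differ for technical reasons.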

Additional observations from a re-analysis of the deposited data

Results flagged for a closer look

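The response to dox differed between siControl and an siRNA arm, by the interaction term in limma (adjusted p under 0.05), for the members below. Each value is the log2 change with dox in the siRNA arm minus that in siControl. With siMyc, 28 of 37 members differed, where 29.3% of all genes tested were called below 0 and 24.8% above. The hnRNP genes were Hnrnpa1 (-1.13), Hnrnpa2b1 (-1.05), Hnrnpd (-1.01), Hnrnpm (-0.84), Hnrnpa3 (-0.81), Hnrnpu (-0.80), Syncrip (-0.77), Hnrnpab (-0.75), Hnrnpc (-0.64), Hnrnpf (-0.63), Hnrnph1 (-0.54), Hnrnpr (-0.52), Hnrnpa0 (-0.50), Hnrnpl (-0.44) and Hnrnpk (-0.39). The SR genes were Srsf3 (-1.0), Srsf7 (-0.97), Srsf1 (-0.93), Srsf2 (-0.82), Srsf4 (-0.72), Srsf10 (-0.63), Srsf6 (-0.60), Srsf11 (-0.57) and Srsf9 (-0.32). The SR-like genes were Tra2b (-0.78), Srrm1 (-0.72), Tra2a (-0.63) and Srrm2 (-0.51). All 28 lay below 0, so the log2 change with dox was lower in siMyc than in siControl. Leaving out some single library of the 4 groups involved ended the calls of Hnrnpk (adjusted p up to 0.149), Srrm2 (up to 0.105), Srsf9 (up to 0.0747) and Hnrnpa0 (0.0686).

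With siGcn5, 5 of 37 members differed, and all lay below 0, a share close to the 14.5% of all genes tested that were called below 0: Srsf4 (-0.68), Hnrnpc (-0.46), Srrm1 (-0.38), Srsf10 (-0.35) and Hnrnpu (-0.32). Srsf4 was called in every alternative tried, and the 4 others were lost when some single library was left out, at adjusted p of up to 0.142 (Hnrnpc), 0.0588 (Srrm1), 0.0912 (Srsf10) and 0.151 (Hnrnpu). The median of the siGcn5 interaction over all 37 members was -0.23, against -0.08 over all genes tested. Both interactions use the same siControl libraries.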

How the results depend on the processing

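Of 214 calls of members over the 10 comparisons, 160 held in every alternative, 54 ended in at least 1, and 0 reversed. Under filters and scalings, these counts moved by over 1.5 times. For dox in siControl, the count of lower members (1) was 0 with no filter and 2 with median-ratio scaling or quantile normalization. For dox in siMyc, lower members (1) were 4 after median-ratio scaling, 5 after quantile normalization. For dox in siGcn5, lower members (1) were 3 and 2 with these scalings. For siGcn5 without dox, higher members (2) were 1 with no filter or with either scaling. For the interaction of dox and siMyc, members above 0 (0) were 1 with either scaling. For the interaction of dox and siGcn5, members below 0 (5) were 3 with no filter and 1 with quantile normalization. For siMyc against siGcn5 with dox, lower members (21) were 13 with median-ratio scaling. The cause of these shifts was not tested. Among all genes tested, the share of calls that were higher fell under quantile normalization from 62.3% to 49.9% for dox in siControl, from 64.5% to 40.2% in siMyc and from 61.6% to 43.0% in siGcn5. Under median-ratio scaling it went from 64.4% to 49.3% for siGcn5 without dox, from 55.8% to 43.8% for siGcn5 with dox and from 41.4% to 52.8% for siMyc against siGcn5. Replicate numbers are shared across groups, and deviations of same-numbered libraries correlated at 0.0933 to 0.489 over 15 pairs of groups, 14 of them over 0.1. A shared replicate effect is thus not excluded, but 1 pair missed the limit of 0.1 set for all pairs and the labels name no shared batch, so the pairing was not treated as established. The replicate block gave 23 members lower for siMyc without dox in place of 10, where 14.8% of all genes tested were called lower with the block, and 11 below 0 for the siGcn5 interaction in place of 5, against 22.1% of all genes. It also gave 2 higher and 3 lower for dox in siMyc, 2 lower for dox in siGcn5, 2 higher for siGcn5 with dox and 1 above 0 for the siMyc interaction. Leaving out each library gave 29 to 32 higher and 0 to 1 lower for dox in siControl, 1 to 2 and 0 to 1 in siMyc, and 19 to 28 and 0 to 3 in siGcn5. It gave 3 to 15 lower for siMyc without dox, 31 to 34 lower with dox, 13 to 21 lower and 1 to 2 higher for siGcn5 without dox, and 28 to 30 lower with dox. It gave 25 to 28 below and 0 to 1 above for the siMyc interaction, 1 to 13 below for the siGcn5 interaction and 17 to 23 lower for siMyc against siGcn5. Depth limits Srsf12 alone among the members, and 2 libraries a group limit the rest.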
